A study of Mus musculus with 7 samples.

Results

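Fos, Fosb, Fosl2, Jun, Junb, Jund, Egr1, Atf3, Ier2 and Ier3, 10 immediate early genes chosen by name, were followed in neutrophils sorted from mouse livers after acetaminophen-induced liver injury (AILI). All 10 were among the 16047 genes measured. The mice were C57BL/6 males of 8 to 12 weeks that were fasted for 12 h and then injected with acetaminophen (APAP, 300 mg/kg). Livers were taken 24 h later from 4 mice injected with phosphate-buffered saline (PBS) and from 3 mice injected with MC-21, an antibody against the chemokine receptor CCR2 that removes Ly6Chi monocytes, given as 400 µL of hybridoma medium from 12 h before APAP and every 24 h. All mice had therefore received APAP, uninjured liver was not analysed here, and the control mice received neither an isotype antibody nor hybridoma medium. From each liver 50000 cells were sorted as CD11b+, Ly6G+, Ly6Clo and negative for a CX3CR1-GFP reporter, and were made into 1 sequencing library. The labels name only C57BL/6, and the reporter genotype of each mouse is not given in the sources used here. The comparison asks how neutrophil gene expression differs when the monocytes are missing. None of the 10 genes differed between PBS neutrophils and MC-21 neutrophils after adjustment over all genes. Most of them were abundant messages that varied less between livers than the median tested gene.

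Immediate early genes are transcribed within minutes of a signal, from factors already in the cell, and need no new protein for it. Growth factors, cytokines, microbial products, oxidative stress and tissue handling all switch them on, largely through MAP kinases and the serum response factor (SRF). Many of their messages are short-lived, and many of their products are transcription factors: FOS proteins pair with JUN proteins to form AP-1, EGR1 binds GC-rich sites, and ATF3 joins the same dimer network. In neutrophils, as in other myeloid cells, AP-1 and its partners act on the genes of cytokines, chemokines and survival.

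The sequences just before the start of transcription are shown for Fos, the name gene of the AP-1 family, and for Ier3 and Atf3, the genes whose PBS and MC-21 values did not overlap. They were taken from RefSeq on build GRCm38.p6, run 5′ to 3′ on the strand of the gene and end at the base before the annotated start. Capitals mark TGACGT, the core of the cyclic AMP response element, on either strand, as well as the TATA box letters TATAAA and the CCAAT box. The windows are chr12:85473690-85473889 on the plus strand for Fos, chr17:35821513-35821712 on the plus strand for Ier3 and chr1:191183334-191183533 on the minus strand for Atf3.
Fos: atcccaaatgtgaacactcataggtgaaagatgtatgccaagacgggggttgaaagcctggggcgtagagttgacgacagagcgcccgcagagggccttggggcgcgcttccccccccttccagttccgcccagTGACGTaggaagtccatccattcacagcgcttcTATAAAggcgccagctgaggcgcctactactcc
Ier3: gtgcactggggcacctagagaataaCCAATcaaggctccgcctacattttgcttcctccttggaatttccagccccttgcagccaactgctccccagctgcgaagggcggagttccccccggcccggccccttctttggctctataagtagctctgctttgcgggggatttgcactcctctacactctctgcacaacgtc
Atf3: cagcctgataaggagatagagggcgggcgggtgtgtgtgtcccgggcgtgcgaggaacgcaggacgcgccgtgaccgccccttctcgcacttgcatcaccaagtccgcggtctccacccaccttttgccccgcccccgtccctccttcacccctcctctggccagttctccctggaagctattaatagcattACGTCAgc

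The promoter table had an entry for 8 of the 10 genes, all but Egr1 and Ier2, and motifs were searched on both strands in the 250 bases before each start, with positions counted back from that start. TGACGT began at -66 in Fos, 33 bases before its TATAAA at -33. In Atf3 the match at -8 was on the opposite strand and reads ACGTCA on the strand of the gene. Of 32851 mouse promoters of the same length, 6.47% held TGACGT and 12.4% held TATAAA. The CCAAT box, present in 33.8% of promoters, lay at -65 in Jun, at -36 in Junb and at -244 and -175 in Ier3. The early growth response site GCGNGGGCG, present in 4.70%, was found in Fosb at -50 and in Fosl2 at -79. None of the 8 windows held TGANTCA, the AP-1 site, which 6.75% of promoters held, or its longer relative TGACGTCA, held by 1.55% and overlapping TGACGT, or the CArG box, the SRF site, held by 1.47%. The κB consensus, held by 5.00% of promoters, was found in Fos at -214, in Fosb at -188 and in Fosl2 at -182. These are letters found in a window and say nothing of which factor was bound. Sites farther from the start, or departing from these patterns, were not searched, so a gene without a match may still hold such a site.

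Values are RPKM, in which the reads of a gene are scaled to transcript length and to the size of the library. By the depth inferred from the table, 1 RPKM corresponded to 1.59 reads per kb of transcript in MC-21 replicate 3, the shallowest library, and to 3.96 in PBS replicate 8, the deepest. Log2 fold changes are MC-21 minus PBS on log2(RPKM + 1), with adjusted p-values from limma over the 9594 genes that averaged 1 RPKM or more. Over all of these genes the median log2 fold change was -0.15, and 69.4% of genes had a lower mean in MC-21 neutrophils. All 12 neutrophil markers were found, with summed levels of 18767 to 31950 RPKM in the PBS libraries and 29043 to 42908 RPKM in the MC-21 libraries. Summed monocyte and macrophage markers ranged from 466 to 528 RPKM in PBS and from 200.3 to 273 RPKM in MC-21, without overlap. In a sorted bulk sample, fewer cells of a type and less RNA per cell cannot be told apart.

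The FOS proteins pair poorly with themselves and bind DNA mainly beside a JUN protein. Fos (mm9 chr12:86814840-86818223, plus strand) measured 578, 538, 613 and 439 RPKM in PBS replicates 5 to 8, and 517, 601 and 451 RPKM in MC-21 replicates 2 to 4. The MC-21 values lay inside the PBS range, with the highest and the lowest library both from PBS mice. The means were 542 ± 75.0 RPKM (SD, n = 4) in PBS and 523 ± 75.2 RPKM (SD, n = 3) in MC-21. The log2 fold change of Fos was -0.05 (95% interval -0.40 to 0.30, adjusted p = 0.907), an interval that leaves out a 2-fold difference in either direction.

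Fosb and Fosl2, which encode the FOS relatives FosB and Fra-2, were far scarcer than Fos. Fosb (chr7:19888070-19895394, minus strand) measured 12.8, 7.32, 11.0 and 15.4 RPKM in PBS and 10.5, 20.1 and 22.3 RPKM in MC-21. A pair of MC-21 livers stood above all PBS livers, while MC-21 replicate 2 lay within the PBS range. Its log2 fold change was 0.54 (95% interval -0.14 to 1.21, adjusted p = 0.442), the widest interval of the 10 genes. The Fosb values stand for about 91 to 232 reads per library, taking its longest annotated transcript. Fosl2 (chr5:32438845-32460204, plus strand) measured 10.9, 9.73, 14.0 and 11.2 RPKM in PBS and 14.5, 9.11 and 12.4 RPKM in MC-21, so that both the highest and the lowest library were from MC-21 mice. Its log2 fold change was 0.05 (95% interval -0.40 to 0.51, adjusted p = 0.921).

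The JUN proteins pair with each other or with FOS proteins, and c-Jun is the strong activator among them. Jun (chr4:94715725-94718913, minus strand, a single exon) measured 120.2, 133, 119.5 and 131 RPKM in PBS and 148, 109 and 149.9 RPKM in MC-21. The PBS values were close together, with a coefficient of variation of 5.76%, and the MC-21 values lay on both sides of them. The log2 fold change was 0.09 (95% interval -0.24 to 0.43, adjusted p = 0.808).

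Junb, whose product opposes c-Jun at some promoters and acts as a brake on myeloid growth, was the most abundant JUN message. It lies on chr8:87500811-87502617 (minus strand, a single exon) and measured 787, 892, 1067 and 875 RPKM in PBS and 808, 761 and 924 RPKM in MC-21. The groups overlapped, with log2 fold change -0.12 (95% interval -0.43 to 0.19, adjusted p = 0.727). Jund, the JUN gene that is least dependent on a signal, lies on the same chromosome at chr8:73221638-73224515 (plus strand, a single exon). Jund measured 125, 105, 116 and 104 RPKM in PBS and 98.0, 99.8 and 131 RPKM in MC-21. In Jund a pair of MC-21 livers was below all PBS livers and the remaining MC-21 liver above them, and the log2 fold change was -0.05 (95% interval -0.38 to 0.29, adjusted p = 0.911).

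Egr1 encodes a zinc finger factor that responds to MAP kinase signals and shares much of its input with Fos. It measured 391, 432, 389 and 353 RPKM in PBS and 414, 409 and 570.5 RPKM in MC-21. MC-21 replicate 4 was the highest library, and only PBS replicate 6 reached the level of the other MC-21 livers. The log2 fold change of Egr1 was 0.23 (95% interval -0.11 to 0.57, adjusted p = 0.511).

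Atf3 encodes a stress-induced factor of the ATF family that restrains inflammatory genes in myeloid cells. Atf3 (mm9 chr1:192994175-193007219, minus strand) measured 111, 126, 136 and 143 RPKM in PBS and 85.8, 82.4 and 101 RPKM in MC-21. All 3 MC-21 livers were below all 4 PBS livers, on about 260 to 1126 reads per library. The means were 129 ± 13.9 RPKM (SD, n = 4) and 89.7 ± 9.91 RPKM (SD, n = 3). The log2 fold change was -0.52 (SE 0.14, 95% interval -0.84 to -0.20), which is 1.43-fold lower on the log2(RPKM + 1) scale. The unadjusted p from limma was 0.00505 and the adjusted p was 0.165, so Atf3 did not pass the test. After centring every library on its own median, the log2 fold change was -0.36 (adjusted p = 0.434) and the groups overlapped. The summed monocyte and macrophage markers were also lower in every MC-21 library, and their part in the Atf3 values was not tested.

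The IER genes are small early response genes outside the dimer network. Ier2 (mm9 chr8:87185230-87186751, minus strand, a single exon), which encodes a small nuclear protein, measured 638, 605, 539 and 511 RPKM in PBS and 570.0, 541 and 621 RPKM in MC-21. The MC-21 values lay inside the PBS range. Its log2 fold change was 0.01 (95% interval -0.27 to 0.30, adjusted p = 0.971). Ier2 had the smallest spread between libraries of the 10 genes.

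Ier3, also called IEX-1, encodes a short-lived protein that acts on cell survival and is a target of NF-κB. Ier3 (mm9 chr17:35958629-35959868, plus strand) measured 844, 941, 934 and 756 RPKM in PBS and 1361, 977 and 1580.2 RPKM in MC-21. All 3 MC-21 livers were above all 4 PBS livers, though MC-21 replicate 3 exceeded the highest PBS liver only narrowly. About 1759 to 5500 reads per library lie behind these values. The means were 869 ± 87.4 RPKM (SD, n = 4) and 1306 ± 305 RPKM (SD, n = 3). The log2 fold change was 0.57 (SE 0.17, 95% interval 0.18 to 0.95), which is 1.48-fold on the log2(RPKM + 1) scale. The unadjusted p from limma was 0.00909 and the adjusted p was 0.197, so Ier3 did not pass the test either. After the same centring the log2 fold change of Ier3 was 0.73 (adjusted p = 0.162) and the groups still did not overlap.

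**Figure D1:**
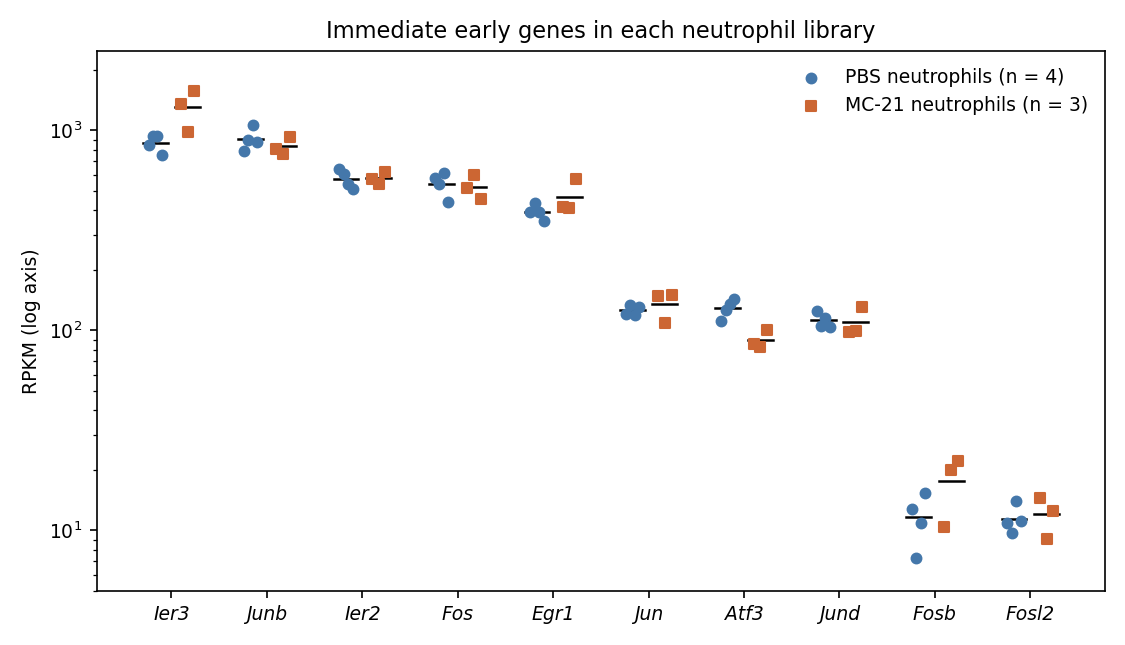
Level of each of the 10 genes in every library, in RPKM on a log axis, with PBS and MC-21 libraries as separate points and their group means as bars. Atf3 and Ier3 are the genes whose groups do not overlap: Atf3 lies between 111 and 143 RPKM in PBS and between 82.4 and 101 RPKM in MC-21, and Ier3 between 756 and 941 RPKM in PBS and between 977 and 1580.2 RPKM in MC-21.

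By level, averaged over the 7 libraries, the order was Ier3, Junb, Ier2, Fos, Egr1, Jun, Atf3, Jund, Fosb and Fosl2. Ier3 was the 69th and Junb the 86th most abundant of the 16047 genes, 5 of the 10 ranked in the top 500, and none was at 0 in any library. The libraries are read from the transcript end while RPKM divides by length, so the order between genes depends in part on transcript length. Neighbours in this order were often not apart. The ranges over libraries overlapped between Ier3 and Junb, among Ier2, Fos and Egr1, among Jun, Atf3 and Jund, and between Fosb and Fosl2, while these 4 sets of genes did not overlap with one another. Ier3 was above Junb in PBS replicates 5 and 6 and in all MC-21 libraries, and below it in the other PBS libraries. Atf3 was below Jun in all MC-21 libraries and above it in PBS replicates 7 and 8.

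The 10 genes together made up 0.693% to 0.799% of all RPKM in the PBS libraries, and 0.808%, 0.728% and 0.904% in MC-21 replicates 2, 3 and 4. Ier3 alone accounted for 22.6% to 24.8% of their sum in PBS and for 33.8%, 27.1% and 34.6% in those MC-21 libraries. Atf3 made up 3.08% to 4.29% of the sum in PBS and 2.13% to 2.28% in MC-21. By family, the summed FOS genes ranged from 466 to 638 RPKM in PBS and from 486 to 631 RPKM in MC-21, and the JUN genes from 1032 to 1302 RPKM and from 970.3 to 1206 RPKM. Both families overlapped between the groups. Ier2 and Ier3 together ranged from 1266 to 1547 RPKM in PBS and from 1518 to 2201 RPKM in MC-21, an overlap of MC-21 replicate 3 with the PBS libraries.

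**Figure D2:**
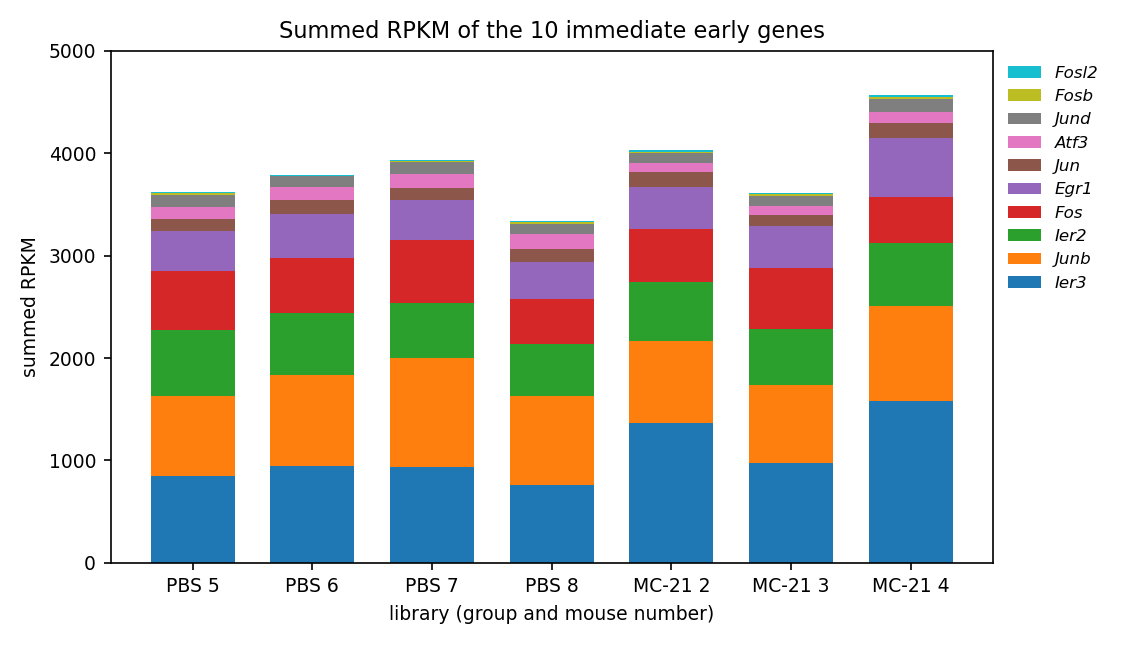
Summed RPKM of the 10 genes in each of the 7 libraries, as bars that start at 0 and are split by gene. The sum runs from 3339 to 3938 RPKM in the PBS libraries and is 4028, 3610 and 4564 RPKM for replicates 2 to 4 of the MC-21 group, and Ier3, the lowest segment, is taller in each MC-21 library than in any PBS library.

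Most of the 10 genes varied less between livers than the median tested gene. The residual SD on the log2 scale ran from 0.131 for Ier2 to 0.477 for Fosb, and was below the median of all tested genes, 0.282, in 9 of the 10. Fosb was the exception. Among the 8 genes of at least 50 RPKM, 7 had a residual SD below 0.215, the median of the tested genes at that level. Ier3 (0.252) was above it, and Fos (0.208) and Egr1 (0.194) were not far below it. The genes did not move as 1 block across the 7 libraries: 26 of their 45 pairwise Pearson correlations were above 0, with a median r of 0.10. The pair Egr1 and Ier3 had r = 0.84 and the pair Fos and Jun r = -0.74 over 7 libraries that share the same scaling, given as a description.

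Against this background of tested genes, an adjusted p under 0.05 was reached by 0 of the 10 and by 60 of 9594 (0.625%). Likewise 0 of the 10 combined an unadjusted p under 0.05 with a 2-fold difference by limma, which 2.70% of tested genes did. These are the cutoffs of the study's methods, which applied them to a different test, made on each gene alone. An unadjusted p under 0.05 was found for 2 of the 10, Atf3 and Ier3, and for 14.7% of tested genes. The groups did not overlap in the same 2 genes of the 10, and in 13.3% of tested genes. At 10 genes, a count of 2 is near both of these shares. The median log2 fold change of the 10 genes was 0.03, with 6 higher and 4 lower in MC-21, and 9 of the 10 lay above the all-gene median of -0.15. Median centring shifts the log2 fold changes of all genes alike, and after it 9 of the 10 were positive and only Atf3 negative. The groups then did not overlap in Egr1 and Ier3. The share of all tested genes without overlap was not counted after centring, so these genes have no background there. After quantile normalization 5 of the 10 were higher in MC-21. Their median log2 fold change was then 0.055, against -0.008 over all genes tested.

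**Figure D3:**
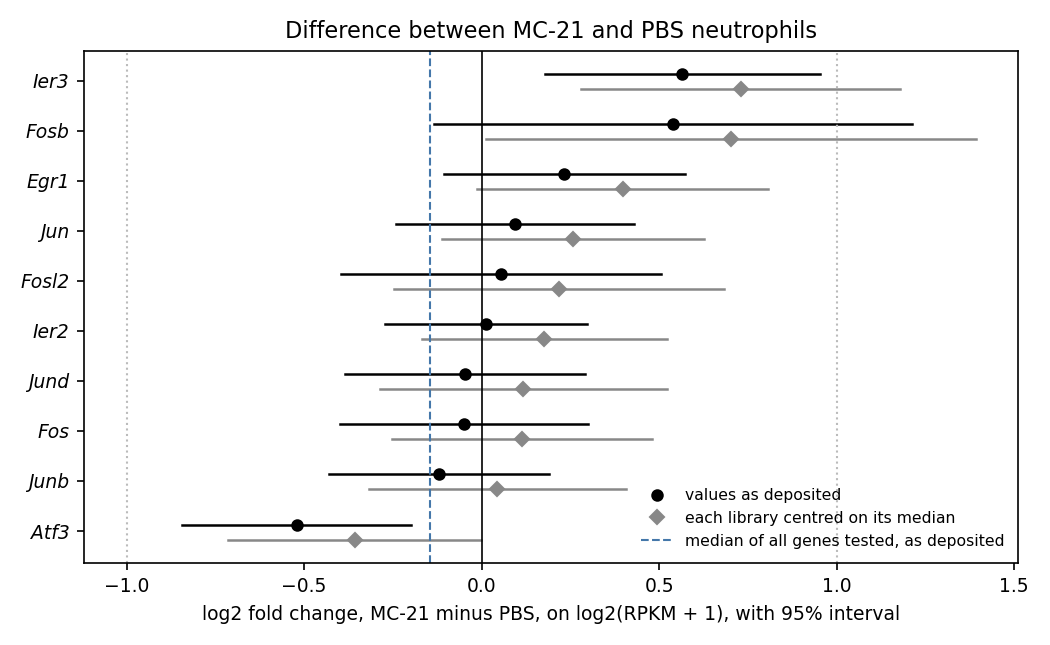
Log2 fold change of each gene, MC-21 minus PBS on log2(RPKM + 1), with its 95% interval from limma, as deposited (black) and with libraries centred on their medians (grey). The dashed line is the median of all genes tested, and dotted lines mark a 2-fold difference. As deposited, the intervals of Atf3 (-0.84 to -0.20) and Ier3 (0.18 to 0.95) leave out 0 and those of the other 8 genes hold it.

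Other genes of the same response, from lists of companions, were read beside them. The lists were drawn up with earlier results of these data known, so their counts are a description and not a test. Of 45 other immediate early genes, 40 passed the filter, 24 with a higher and 16 with a lower mean in MC-21, and 1 rose with an adjusted p under 0.05. By unadjusted p under 0.05, 12 were higher and 5 lower, where 14.7% of all tested genes had such a p and 69.4% had a lower mean. The gene that rose was Id2, an inhibitor of DNA binding by helix-loop-helix factors, at 306, 256, 203 and 184 RPKM in PBS and 425, 568 and 701 RPKM in MC-21. Its groups did not overlap, and the log2 fold change was 1.25 (SE 0.22, adjusted p = 0.0415). The call on Id2 was lost in 8 of 13 alternative analyses, among them those without PBS replicate 6, 7 or 8 or without any single MC-21 library, with adjusted p-values of 0.0311 to 0.186 over the 13 and log2 fold changes of 1.08 to 1.44.

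The most abundant of these companions encode feedback inhibitors of signalling. Dusp1, a phosphatase that switches off MAP kinases, averaged 2518 ± 310.3 RPKM (SD, n = 4) in PBS and 2515 ± 284 RPKM (SD, n = 3) in MC-21. Zfp36, which speeds the decay of cytokine messages, averaged 1868 ± 272 and 1687 ± 517 RPKM. Nfkbia, the NF-κB inhibitor, averaged 1224 ± 328 and 1733 ± 182 RPKM, with log2 fold change 0.53 (adjusted p = 0.264). None of these passed the test. Nfil3 (log2 fold change 0.83, adjusted p = 0.130), a bZIP repressor, and Tiparp (0.80, adjusted p = 0.0960), a target of the aryl hydrocarbon receptor, had higher values in every MC-21 library than in any PBS library without passing. Tiparp was scarce, at 4.02 to 10.1 RPKM. Of the 40 other immediate early genes tested, 5 lay higher and 1 lower in MC-21 without overlap. Over all tested genes the share without overlap was 13.3%.

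Of 24 other AP-1 and dimer partners, 21 were tested and 0 had an adjusted p under 0.05. By unadjusted p under 0.05, 4 were higher and 0 lower, and the groups did not overlap in 4. Over all tested genes the shares were 14.7% and 13.3%, so counts of 4 in 21 are not far from the background. Jdp2, a partner of c-Jun that represses AP-1, measured 27.1, 33.2, 39.4 and 41.7 RPKM in PBS and 62.9, 51.4 and 64.0 RPKM in MC-21, with log2 fold change 0.75 (adjusted p = 0.116). Batf3 averaged 23.5 ± 3.48 RPKM (SD, n = 4) and 43.5 ± 17.5 RPKM (SD, n = 3), and Cebpd 234 ± 12.3 and 310.3 ± 26.5 RPKM, with adjusted p-values of 0.203 and 0.190. In the values as deposited, Atf3 was thus lower in all MC-21 livers while Jdp2, Batf3 and Cebpd were higher, each short of the test. For Batf3 the margin was narrow, with 29.1 RPKM in MC-21 replicate 3 against 28.4 RPKM in PBS replicate 8. Cebpb and Atf4, the abundant partners, had log2 fold changes of -0.05 (adjusted p = 0.870) and 0.09 (adjusted p = 0.795).

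Of the input to these genes only message levels were read, and the activity of the proteins was not measured here. The list held 29 genes of SRF, its cofactors and the MAP kinases. Of these, 24 were tested and 0 had an adjusted p under 0.05. Their median log2 fold change was -0.19, with 7 higher and 17 lower in MC-21, and 5 had an unadjusted p under 0.05, all lower. Both counts are near the background, in which 69.4% of genes were lower and 14.7% had such a p. Elk3, a ternary complex factor that acts with SRF, averaged 33.7 ± 5.42 RPKM (SD, n = 4) in PBS and 16.6 ± 4.20 RPKM (SD, n = 3) in MC-21, with no overlap. Its log2 fold change was -0.99 (adjusted p = 0.0739). Rps6ka4, a kinase downstream of the MAP kinases, had log2 fold change -0.71 (adjusted p = 0.218), and Mapk3, which encodes ERK1, -0.51 (adjusted p = 0.285). The abundant kinase genes Map2k2 and Mapkapk2 had adjusted p-values of 0.995 and 0.663. Centred on each library's median, the median of this list was -0.02, against 0.02 over all genes tested. The centred medians were 0.30 for the other immediate early genes and 0.27 for the AP-1 partners.

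Heat shock genes, which also respond to cell handling, had 12 of 13 members tested. None had an adjusted or an unadjusted p under 0.05 by limma, and in none did the groups avoid overlap. Hspa8 had log2 fold change 0.21 (adjusted p = 0.565), Hsp90ab1 -0.24 (adjusted p = 0.594) and Hspe1 -0.20 (adjusted p = 0.550). Livers of both groups were digested for 45 min at 37 °C before sorting. No undigested cells were analysed here, so levels of Fos, Junb, Egr1 and their relatives reached in the liver and during isolation cannot be told apart.

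**Figure D4:**
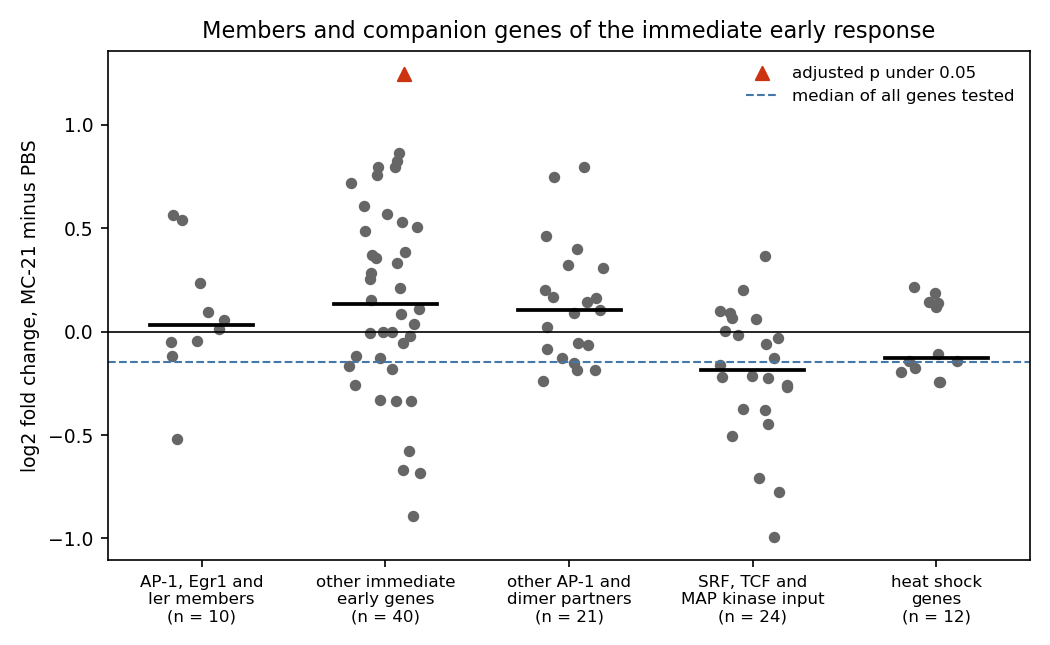
Log2 fold change (MC-21 minus PBS) of every tested gene of the 10 and of 4 companion lists, 1 point a gene, with the list median as a bar and the all-gene median as a dashed line. The only point with an adjusted p under 0.05 (triangle) is Id2 at 1.25, and the list medians run from -0.19 to 0.13.

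Markers of other cells were counted in the same libraries. Of 16 monocyte and macrophage markers 15 were in the table and 11 were tested, 10 of them lower in MC-21 and 4 with an adjusted p under 0.05. Ccr2, the target of MC-21, was at 0 in MC-21 replicate 3, the shallowest library, where a scarce message can be missed. Mertk and Vsig4 were at 0 in some libraries. The sums overlapped between the groups for hepatocyte markers (275 to 625 RPKM in PBS, 278 to 435 RPKM in MC-21), endothelial markers (1035 to 2327 and 1178 to 2108 RPKM) and lymphocyte markers (9.38 to 17.9 and 5.34 to 11.2 RPKM). Their part in the values of the 10 genes was not tested. Jun, Jund and Egr1 each overlap an annotated gene on the opposite strand, and since the counting of strand was not stated, reads of the 2 cannot be told apart.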

How the data were processed

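RNA-seq was performed on liver neutrophils of 4 PBS and 3 MC-21 mice at 24 h after AILI, 1 library a liver. The authors sequenced 3′ libraries, mapped reads to mm9 with HISAT 0.1.5, converted them with SAMtools and deposited RPKM values per gene from Partek Genomics Suite 6.6. Annotation, strand setting and use of molecular barcodes are not given in the sources used here. Dividing reads from transcript ends by length affects levels between genes, not differences within a gene.

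Depth was inferred from the steps of low RPKM values: 324 of 631 genes gave the same depth within 1%, and 77.8% of 3071 low values then lay within 0.1 of a whole read. Differences used log2(RPKM + 1), a filter of mean 1 RPKM, limma 3.58.1 with a trend (R 4.3.3) and Benjamini-Hochberg adjustment over 9594 genes, after a test on simulated data. The p-values set the difference between the groups against the spread between livers, which limma moderates over genes. Gene positions are from GENCODE vM1 (mm9). From companion lists, genes with an adjusted p under 0.05 or past the unadjusted cutoffs, the 3 most abundant and the 3 with the smallest p were named, and for Fos and Egr1 the 5 genes of highest correlation. The values of 1 such gene are not reported here. Members and lists were chosen with earlier results of these data known. Alternatives were pseudocount 0.1, no filter, a filter of mean 5 RPKM, median centring, quantile normalization, no trend and leaving out each library.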

Additional observations from a re-analysis of the deposited data

How the results depend on the processing

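None of the 10 genes had an adjusted p under 0.05, or passed the unadjusted cutoffs, in any of the 13 alternatives. Atf3 was lower in all 13, with log2 fold changes of -0.61 to -0.36 and adjusted p of 0.136 to 0.434, and Ier3 higher in all 13, with 0.41 to 0.76 and adjusted p of 0.106 to 0.441. Centring on library medians raises the log2 fold change of every gene by the same amount. It turned Fos to 0.11, Junb to 0.0445 and Jund to 0.12 and moved the median of the 10 genes to 0.20. Quantile normalization turned Ier2 to -0.0431. Why the libraries differ in their medians was not tested.

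Leaving out 1 library at a time gave these ranges of log2 fold change: -0.154 to 0.0524 for Fos, -0.0825 to 0.226 for Fosl2, -0.182 to 0.028 for Jund and -0.0405 to 0.0668 for Ier2. Egr1 ranged from 0.0765 (without MC-21 replicate 4) to 0.316, Jun from 0.0145 (without MC-21 replicate 4) to 0.243 (without MC-21 replicate 3) and Fosb from 0.345 (without MC-21 replicate 4) to 0.857 (without MC-21 replicate 2, adjusted p = 0.251). The median of the 10 genes ranged from 0.0043 to 0.14, the highest without MC-21 replicate 3. Of the 10 genes, 2 had groups that did not overlap in the full data and 3 without PBS replicate 6 (Egr1 added), MC-21 replicate 2 (Fosb), replicate 3 (Jun) or replicate 4 (Jund), while the share over all tested genes went from 13.3% to 22.1%, 24.3%, 23.3% and 20.9%. All genes with an adjusted p under 0.05 numbered 60, but 4 with no filter on low values, where more genes were tested, and 9 (without PBS replicate 8) to 102 (without PBS replicate 6) when 1 library was left out, with 14 without PBS replicate 7 and 19, 35 and 18 without MC-21 replicates 2, 3 and 4. No paired analysis was possible because the replicate numbers of the groups, 5 to 8 and 2 to 4, share none. Fosb and Fosl2 rest on the fewest reads, at most 304 a library.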

Other observations

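The genes whose values followed Fos most closely over the 7 libraries, by Pearson r on log2(RPKM + 1), were Myef2 (r = 0.97), Ppig and Irak3 (both r = 0.95), 4930455G09Rik (r = 0.95) and L1cam (r = 0.93). All 5 were scarce, none above 8.36 RPKM in any library, and 4930455G09Rik was at 0 in MC-21 replicate 4. The genes nearest to Egr1 were Klhl18 (r = 0.99), Jph3 (r = 0.98), 2210408F21Rik (r = 0.95), Ugt1a1 (r = 0.94) and Kdm6b (r = 0.94). Jph3 was also scarce, at 0.970 to 2.40 RPKM. Spearman's rho was 0.89 to 0.96 for the genes nearest to Fos, 0.96 for Klhl18 and 0.68 to 0.82 for the other 4 nearest to Egr1. In all 5 of those, as in Egr1 itself, MC-21 replicate 4 was the highest library, for example at 5.67 RPKM of Ugt1a1 against at most 1.85 RPKM elsewhere. These are the highest correlations among 9594 genes over 7 libraries that share depth and scaling, and are given as a description.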
